A study of Rattus norvegicus with 4 samples.

Results

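The insulin and insulin-like growth factor (IGF) axis was examined through 10 genes, *Igfbp1*, *Igfbp2*, *Igfbp3*, *Igfbp4*, *Igf1*, *Igfals*, *Irs1*, *Irs2*, *Insr* and *Ghr*, picked by symbol from the 16999 named genes in RNA sequencing of rat liver. They were chosen with earlier results of these data known, so their counts beside the shares over all genes are a description only. Each symbol had 1 row in every library. Wild type rats inhaled sevoflurane at 4.5% or desflurane at 6% and were killed either when they lost consciousness (0 h, the control of each agent) or after 6 h of anesthesia. Each of the 4 groups, 2 agents by 2 times, held 1 liver library, so every comparison is of 1 animal with another and no value has a replicate error. Controls had thus also inhaled the agent briefly, and their livers were taken 6 h apart from those of the anesthetized rats, so that duration of anesthesia and hour of harvest cannot be told apart in any comparison of 6 h with 0 h. For these animals the sources used here name no strain, sex, age or feeding.

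The liver is the main source of circulating IGF1, which it makes under the control of growth hormone acting on the receptor GHR. In blood most IGF1 travels in a ternary complex with IGFBP3 and the acid-labile subunit encoded by *Igfals*, while IGFBP1 is a short-lived binding protein whose hepatic transcription is lowered by insulin and raised in fasting and by glucocorticoids. Insulin acts on hepatocytes through its receptor INSR and the docking proteins IRS1 and IRS2, and this signal keeps the transcription factor FOXO1 out of the nucleus.

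*Igfbp1* carried by far the widest range of levels, and its promoter is shown first because the element through which insulin lowers its transcription has been studied there. Promoter sequences of 9 of the 10 genes were found in RefSeq (build GRCr8), and the 250 bases before the annotated start were searched on both strands for 6 motifs. The sequences below are the *Igfbp1* promoter (chr14:86261027-86261276, plus strand), that of *Igf1*, which holds the same core letters (chr7:24172282-24172531, plus strand), and that of *Igfbp2*, the other binding protein called higher with both agents (chr9:81864561-81864810, plus strand). Capitals mark matches to any of the motifs.
Igfbp1: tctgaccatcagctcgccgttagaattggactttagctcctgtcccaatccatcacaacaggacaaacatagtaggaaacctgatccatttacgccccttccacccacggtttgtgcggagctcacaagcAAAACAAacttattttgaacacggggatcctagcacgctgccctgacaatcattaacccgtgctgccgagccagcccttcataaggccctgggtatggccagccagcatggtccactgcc
Igf1: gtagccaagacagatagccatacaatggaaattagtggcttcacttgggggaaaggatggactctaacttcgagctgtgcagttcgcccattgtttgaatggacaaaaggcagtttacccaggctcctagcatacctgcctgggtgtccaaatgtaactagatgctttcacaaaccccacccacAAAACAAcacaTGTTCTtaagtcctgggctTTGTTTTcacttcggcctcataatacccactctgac
Igfbp2: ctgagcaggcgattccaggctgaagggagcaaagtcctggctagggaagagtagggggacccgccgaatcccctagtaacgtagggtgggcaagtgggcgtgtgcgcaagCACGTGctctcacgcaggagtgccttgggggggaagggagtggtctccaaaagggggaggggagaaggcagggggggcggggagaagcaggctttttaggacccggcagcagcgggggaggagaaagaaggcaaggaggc

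The core AAAACAA of the insulin response element began 120 bases before the start of *Igfbp1*. It was also present 66 bases before the start of *Igf1*, which was not called in any comparison, and again on the reverse strand 36 bases before it. This core was found in 7.96% of the 33469 promoters searched. The FOXO core GTAAACA, present in 3.21% of promoters, was found in *Insr* alone, 100 bases before the start and on the reverse strand. AGAACA, part of the glucocorticoid receptor element and present in 17.5% of promoters, was found on the reverse strand in *Igf1* and *Ghr*. The E-box CACGTG, present in 5.59% of promoters, was found in *Igfbp2*. TGACG, part of the cyclic AMP response element and present in 18.2% of promoters, was found in *Insr*. The STAT5 element TTCNNNGAA, present in 7.67% of promoters, was found in none of the 9. No overlap between matches of different motifs occurred in these promoters. A match describes letters in this window only.

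Coverage at a TPM of 2 ran from 4.72 to 7.28 reads per base and was lowest in sevoflurane 0 h, the shallowest library. Levels are given as the deposited TPM, which is scaled by the length of each gene and by the size of the library. Loci assembled from the reads already fill its total without the named genes. The column is thus a score, and comparisons of its levels between genes are approximate. All 8 hepatocyte markers were expressed, led by *Alb* at a TPM between 53282 and 58867. Their summed TPM was 97157 and 100776 in the controls and 96199 and 90762 at 6 h. Without *Alb* the sums were 39704 and 41908 in the controls against 40223 and 37480. *Tat* alone of this list was called, higher with both agents (123 to 529 with sevoflurane and 119 to 623 with desflurane). The islet and pancreas markers were at 0 in all libraries for 4 of 6 genes. *Cela1* of this list stood between 23.9 and 29.7, and *Cpa1* was above 0 in desflurane 6 h alone (0.036). *Ins1* and *Ins2*, which encode insulin itself, were listed at 0 throughout. Clock genes, whose levels vary with the hour of day, differed between the times, with *Dbp*, a clock output gene, which stood at a TPM of 0.40 and 1.92 in the controls against 87.9 and 44.8 at 6 h, and *Arntl*, a core clock gene, at 22.6 and 17.6 against 0.43 and 2.14. Summed TPM of the red blood cell list (4 of 4 genes found, none of them at 0 in all libraries) was 450 and 727 in the controls and 1214 and 1342 at 6 h, and that of the lymphocyte list (5 of 6 found) was 3.18 and 4.18 against 1.96 and 1.77. The lymphocyte sum rested on *Cd8a*, called lower with both agents and the only eligible gene of that list. Without it the sums were 0.939 and 1.10 in the controls and 0.879 and 1.17 at 6 h, and *Ncr1*, of natural killer cells, went the other way (0 and 0.216 against 0.407 and 1.03). The stellate cell list (8 of 8) summed to 122 and 132 in the controls and to 178 and 185 at 6 h, most of which was the collagen gene *Col3a1*. Without it the sums were 37.4 and 37.2 against 43.5 and 39.4, with *Pdgfrb* at 6.04 and 4.51 against 2.41 and 2.65 and *Lrat* between 9.16 and 10.5. *Pdgfrb* was called lower with sevoflurane. *Rgs5* was called higher with sevoflurane, from 3.82 to 11.0, but stood at 4.73 and 4.09 with desflurane. *Col1a1* was at 2.10 and 2.24 in the controls against 3.24 and 3.42. The Kupffer cell list (8 of 8, 318 to 417), the endothelial list (7 of 8, 58.4 to 69.2) and the cholangiocyte list (4 of 5, 6.75 to 8.13) did not separate the hours. The part of these cells in the values below was not tested, and in pieces of whole liver fewer cells of a type and less RNA per cell cannot be told apart.

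Among the 10 genes, *Igfbp4* was the most abundant in every library and *Irs2* the least abundant in every library but desflurane 6 h, where *Irs1* was marginally lower. By their mean over the 4 libraries the order was *Igfbp4*, *Igf1*, *Ghr*, *Igfals*, *Igfbp1*, *Insr*, *Igfbp3*, *Irs1*, *Igfbp2* and *Irs2*. The ranges of *Igfbp4*, *Igf1*, *Ghr* and *Igfals* lay apart from each other, and so did those of *Igfbp3* and *Irs1*. The ranges of all other neighbors in the order overlapped. The place of *Igf1* is uncertain, since its deposited coverage was between 0.503 and 0.559 of what its TPM implies, against about 1 for the other genes. Taken from coverage, its level would be between 108 and 137, below that of *Ghr* (175 to 190). Loci assembled from the reads on its strand went the other way, with a TPM between 308 and 415 over *Igf1* and between 207 and 232 over *Ghr*. *Igfbp1* had the widest range, with its highest level 56.1 times its lowest, whereas for *Ghr* this ratio was 1.08.

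**Figure D1:**
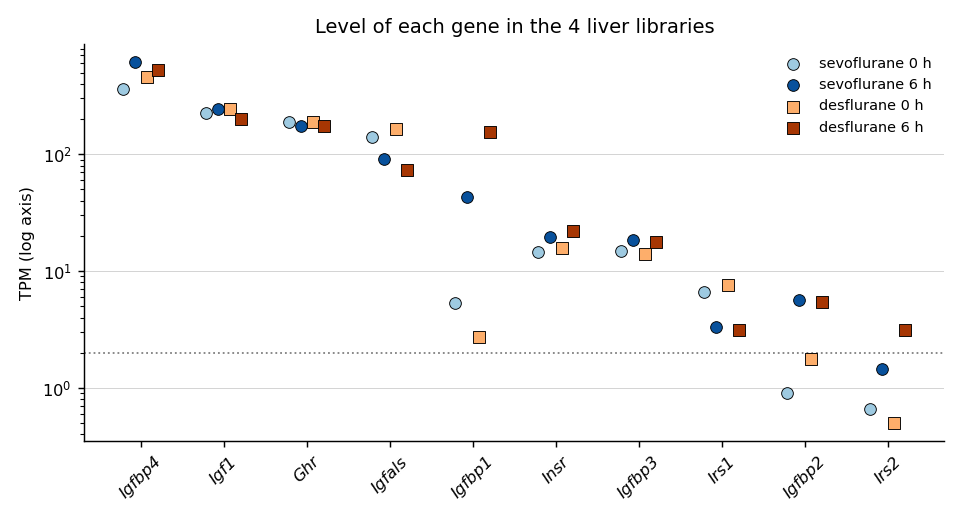
TPM (log axis) of the 10 genes in the 4 libraries, ordered by mean level, with sevoflurane as circles, desflurane as squares, 0 h in pale and 6 h in dark color. The dotted line is the TPM of 2 used for calls. *Igfbp1* runs from 2.74 to 154, while the 4 values of *Ghr* lie between 175 and 190.

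A gene was called higher or lower between a pair of libraries when its ratio was over 2 and its TPM was above 2 on at least the higher side. After 6 h of sevoflurane 2 of the 10 genes were called higher and 0 lower, where the same rule called 5.04% of 8270 eligible genes higher and 3.71% lower (8.75% in all). After 6 h of desflurane 3 were called higher and 2 lower, where it called 4.1% of 8372 eligible genes higher and 5.55% lower (9.65% in all). *Irs2* did not reach the minimum in either sevoflurane library, so 9 of the 10 genes were eligible there, and *Igfbp2* and *Irs2* reached it through their 6 h libraries only. The median change of log2(TPM + 1) over all 10 genes of the axis was 0.36 with sevoflurane and 0.26 with desflurane. The sevoflurane median includes *Irs2*, which was not eligible there. Over all eligible genes of the libraries the medians were 0.05 and -0.10. No p-value applies to these calls, which rest on 1 library per side.

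The binding proteins were taken first. *Igfbp1*, on chromosome 14 from 87448716 to 87453783 (rn6, plus strand), stood at a TPM of 5.29 in sevoflurane 0 h, 42.7 in sevoflurane 6 h, 2.74 in desflurane 0 h and 154 in desflurane 6 h. Both 6 h libraries were far above both controls, by 8.08-fold with sevoflurane and 56.1-fold with desflurane. On the log2(TPM + 1) scale the changes were 2.80 and 5.37, while the controls differed by 0.75, with the desflurane control lower. The mean coverage behind these values was 12.5, 146, 9.47 and 561 reads per base in the same order. *Igfbp3*, which binds IGF1 in the ternary complex, lies on the opposite strand from 87457647 to 87465374, with its end 3863 bases from the end of *Igfbp1*. Its TPM was 14.9, 18.6, 14.1 and 17.9 in the same order of libraries. The 6 h values of this neighbor were above the controls, but by ratios of 1.24 and 1.27 that were not called.

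*Igfbp2*, a binding protein on chromosome 9 from 80118029 to 80144801, stood at a TPM of 0.90 and 5.68 with sevoflurane and at 1.77 and 5.43 with desflurane, 0 h before 6 h. The anesthetized animals were nearly level and both were above both controls, and the gene was called higher with sevoflurane (6.33-fold) and with desflurane (3.08-fold). The larger change with sevoflurane came with a lower control, covered only 2.12-fold, and the controls differed by 1.97-fold. *Igfbp4*, a binding protein that restrains IGF action, on chromosome 10 from 86950555 to 86962563, stood at 362 and 615 with sevoflurane and at 457 and 524 with desflurane. Its 6 h values were above both controls, with ratios of 1.70 and 1.15 that were not called.

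Since *Igfbp4* was so abundant, the binding protein transcripts were also compared as shares of the summed TPM of *Igfbp1* to *Igfbp4*. That sum was 383 and 682 with sevoflurane and 475 and 701 with desflurane. *Igfbp1* made up 1.38% of it in sevoflurane 0 h, 6.27% in sevoflurane 6 h, 0.577% in desflurane 0 h and 22.0% in desflurane 6 h. *Igfbp4* made up between 74.7% and 96.1%, with its lowest share in desflurane 6 h. The ratio of *Igfbp1* to *Igfbp3* was 0.354 and 0.194 in the controls, and 2.30 and 8.62 after 6 h of sevoflurane and desflurane.

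**Figure D2:**
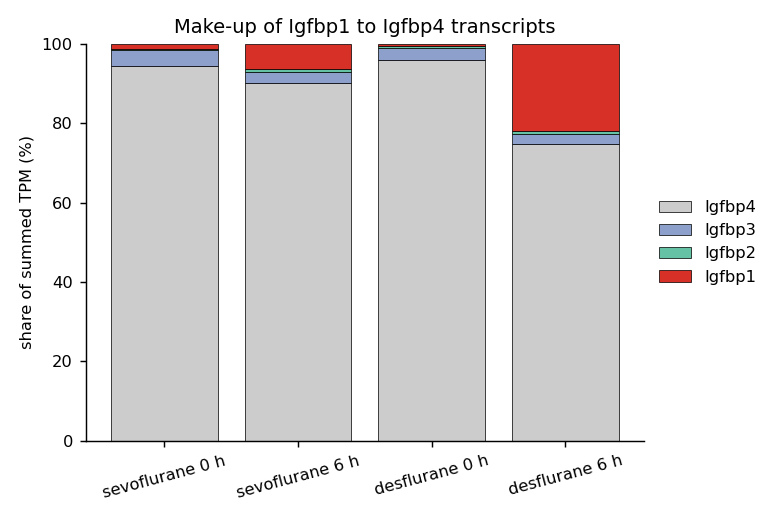
Share of each gene in the summed TPM of *Igfbp1* to *Igfbp4* (%), 1 bar per library. The share of *Igfbp1* (red, top) is 1.38% and 0.577% in the controls, 6.27% in sevoflurane 6 h and 22.0% in desflurane 6 h.

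The ligand, its carrier and the growth hormone receptor were examined next. *Igf1*, on chromosome 7 from 28412198 to 28486609, stood at a TPM of 225 and 246 with sevoflurane and at 244 and 202 with desflurane. The groups overlapped, and the changes had opposite signs, 0.13 and -0.27. *Igfals*, on chromosome 10 from 14240308 to 14243554, stood at 140 and 90.8 with sevoflurane and at 164 and 73.5 with desflurane. Both 6 h values were below both controls, and *Igfals* was called lower with desflurane (2.23 times lower) but not with sevoflurane, where the control was 1.54 times the 6 h value. Against the sevoflurane control, *Igfals* in desflurane 6 h differed by -0.92 and was not called. The TPM of *Igfals* divided by that of *Igf1* was 0.624 and 0.671 in the controls and 0.370 and 0.364 at 6 h. With the levels taken from coverage, in which *Igf1* is lower, this ratio was 1.24 and 1.25 in the controls and 0.662 and 0.678 at 6 h. *Ghr*, on chromosome 2 from 53150370 to 53313884, stood at 189 and 175 with sevoflurane and at 190 and 175 with desflurane. Its 4 values were closer to each other than those of any other gene of the 10, and no comparison called it.

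Of the insulin receptor and its docking proteins, *Irs1* was lower and *Irs2* and *Insr* were higher in both 6 h libraries than in both controls, of which *Insr* was not called in any comparison. *Insr*, on chromosome 12 from 1682527 to 1816414, stood at a TPM of 14.5 and 19.7 with sevoflurane and at 15.9 and 22.0 with desflurane, with ratios of 1.36 and 1.38 that were not called. *Irs1*, on chromosome 9 from 88033668 to 88086488, stood at 6.61 and 3.33 with sevoflurane and at 7.59 and 3.14 with desflurane. Both 6 h values were near 3 while both controls were above 6. The gene was called lower with desflurane (2.42 times), and the ratio with sevoflurane, 1.99, was just under the rule. *Irs2*, on chromosome 16 from 83824515 to 83848569, stood at 0.66 and 1.46 with sevoflurane and at 0.50 and 3.15 with desflurane. It was called higher with desflurane (6.32-fold), whereas the ratio of 2.22 with sevoflurane was not called because no value exceeded the minimum. Coverage of *Irs2* was 1.55 and 1.72 in the controls, so these are its least precise values. The ratio of *Irs1* to *Irs2* was 10.04 and 15.2 in the controls, 2.27 in sevoflurane 6 h and 0.999 in desflurane 6 h.

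**Figure D3:**
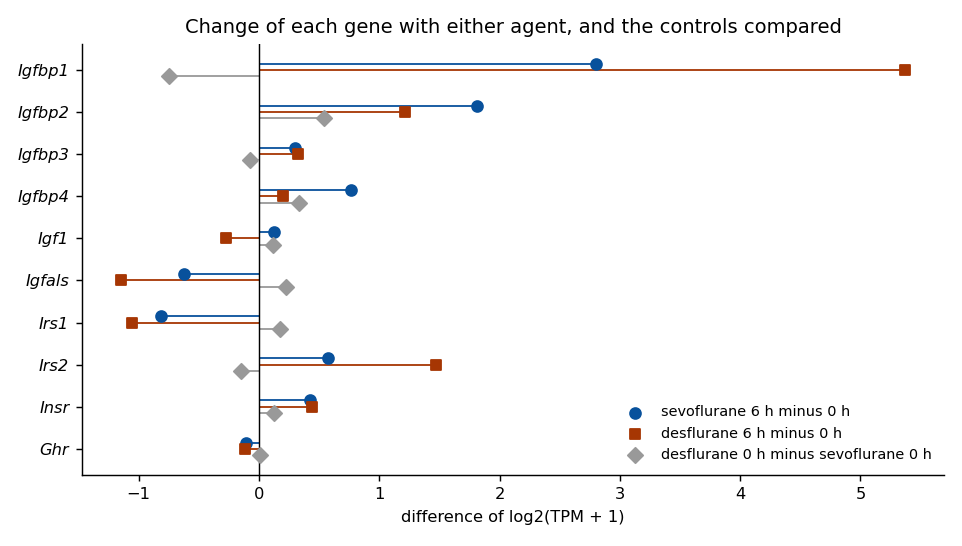
Difference of log2(TPM + 1) for each of the 10 genes between 6 h and 0 h of sevoflurane (blue circles) and of desflurane (brown squares), and between the desflurane and sevoflurane controls (gray diamonds). *Igfbp1* has the largest differences, 2.80 and 5.37, and for 9 of the 10 genes, all but *Igf1*, the 2 agents lie on the same side of 0.

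When the agents were set side by side, comparison of the controls called 0 of the 10 genes, where 1.96% of 8263 eligible genes had higher and 0.799% lower values in desflurane 0 h (2.76% in all). The largest ratio between controls was that of *Igfbp2* (1.97), followed by that of *Igfbp1* (1.93). At 6 h, 2 genes were higher with desflurane than with sevoflurane and 0 were lower, where the rule called 2.21% of 8229 eligible genes higher and 1.77% lower (3.99% in all). These were *Igfbp1*, 3.60 times higher with desflurane, and *Irs2*, 2.15 times higher. With the controls exchanged between the agents, *Igfbp1* was called higher with both, by 15.6-fold with sevoflurane and 29.1-fold with desflurane in place of 8.08 and 56.1.

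Across both agents, the 2 libraries at 6 h lay outside the 2 controls for 9 of the 10 genes, 6 of them higher (*Igfbp1*, *Igfbp2*, *Igfbp3*, *Igfbp4*, *Irs2* and *Insr*) and 3 lower (*Igfals*, *Irs1* and *Ghr*). This was so for 50.9% of the 8557 genes above a TPM of 2 in any library, with 22.9% of them higher and 28% lower. A change shared by the agents was then tested in limma, with the agent as a block, on the 8024 genes whose mean TPM reached 2, which left out *Irs2*. Of the 9 genes tested, 2 were higher and 2 lower at an adjusted p under 0.05, where 4.69% of all genes tested were higher and 3.94% lower (8.62% in all). These counts cannot be weighed against the shares, as the genes were chosen with earlier results of these data known. *Igfbp1* rose by 4.09 ± 0.41 (SE, adjusted p = 4.19e-05 in limma) and *Igfbp2* by 1.52 ± 0.25 (adjusted p = 0.00209). The mean TPM of *Igfbp2* reached 2 only through its 6 h libraries, as its controls were at 0.90 and 1.77. Its entry into the fit thus depended on the same values that were tested. *Irs1* changed by -0.93 ± 0.23 (adjusted p = 0.0238 in limma) and *Igfals* by -0.88 ± 0.15 (adjusted p = 0.00261). The estimates of *Igfbp4* (0.48 ± 0.14, adjusted p = 0.0566), *Insr* (0.43 ± 0.18, adjusted p = 0.199) and *Igfbp3* (0.31 ± 0.18, adjusted p = 0.403) did not pass in limma. Those of *Igf1* (-0.07 ± 0.13, adjusted p = 0.840) and *Ghr* (-0.11 ± 0.12, adjusted p = 0.706) did not pass either. The fit had 1 residual degree of freedom, so its errors come mostly from the spread shared across genes. That residual is the difference between the changes of the 2 agents. The SE and p-values thus measure how unlike those changes were, and not the spread between animals of a group. When genes of low abundance entered the fit, 0 of the 10 genes passed (adjusted p = 0.149 for *Igfbp1* in limma), beside 1865 of 13629 genes with an unadjusted p under 0.05. With 3 libraries no residual degree of freedom is left beside the block, so libraries were left out in a fit without it, which by itself kept all 4 calls. In that fit *Igfbp1* alone passed without sevoflurane 0 h, and *Igfals* and *Irs1* did not pass without desflurane 0 h or without desflurane 6 h.

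**Figure D4:**
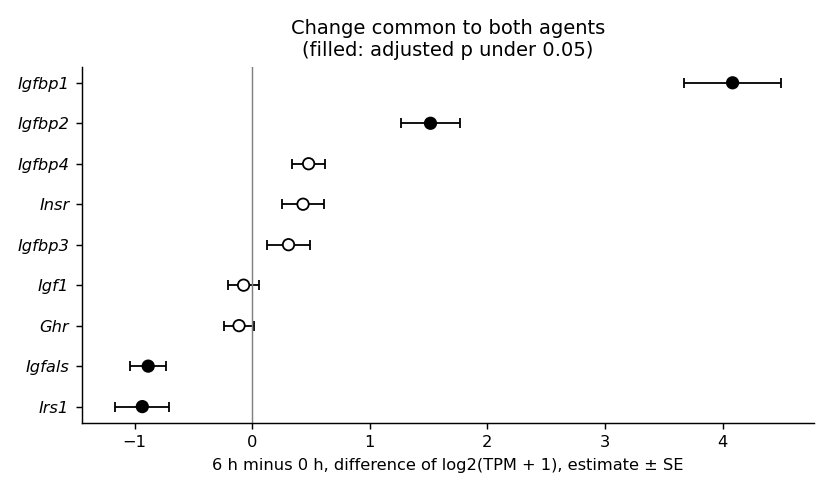
Change common to both agents (6 h minus 0 h, log2(TPM + 1)) for the 9 genes tested in limma, as estimate with SE over 4 libraries. Filled points, with adjusted p under 0.05, are *Igfbp1* (4.09), *Igfbp2* (1.52), *Igfals* (-0.88) and *Irs1* (-0.93).

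To place the 10 genes in their pathway, 89 further genes were examined in 6 lists, of which 83 were found. In the rest of the IGF system 3 of 13 genes found were above a TPM of 2, and 0 were called with either agent. Over all eligible genes 8.75% were called with sevoflurane and 9.65% with desflurane. *Igfbp7*, a low-affinity binding protein, stood at 41.3, 47.5, 46.6 and 58.8 in sevoflurane 0 h and 6 h and desflurane 0 h and 6 h. The growth hormone list, with 9 of its 11 genes eligible with each agent, had 0 called higher with either agent, 2 lower with sevoflurane and 4 lower with desflurane, where 3.71% and 5.55% of all eligible genes were lower. The median change over its eligible genes was -0.16 with sevoflurane and -0.79 with desflurane. *Socs2*, a growth hormone target that restrains the signal of GHR, stood at 44.5 and 12.5 at 0 h and 6 h of sevoflurane and at 29.8 and 8.98 for desflurane. *Stat5a*, a transcription factor activated by GHR, went from 6.27 to 2.47 and from 4.34 to 1.41, and both genes were called lower with both agents and passed in limma (adjusted p = 5.55e-05 and 0.0102). *Stat5b*, the more abundant of the STAT5 genes, went from 22.5 to 11.8 and from 21.4 to 12.0, which was not called, although its common change of -0.83 ± 0.18 passed in limma (adjusted p = 0.0128). *Cish*, another target and inhibitor of this signal, was called lower with desflurane, from 2.29 to 0.52, but stood at 0.99 and 0.69 with sevoflurane. *Bcl6*, a repressor, was also called lower with desflurane (from 7.99 to 2.12), but its sevoflurane values were 1.66 and 2.57.

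Genes that insulin is known to raise or lower were described as separate lists. *Srebf1*, the insulin-induced regulator of fat synthesis, stood at a TPM of 146 and 48.6 with sevoflurane and at 102 and 27.1 with desflurane, 0 h before 6 h. It was called lower with both agents and passed in limma (-1.72 ± 0.15, adjusted p = 1.18e-05). *Fasn*, the fatty acid synthase, went from 73.3 to 33.6 with sevoflurane, where it was called lower, and stood at 24.0 and 22.5 with desflurane. Of the 9 genes of this list, 7 were eligible with sevoflurane, of which 2 were called lower and 0 higher, and 6 with desflurane, of which 1 was lower and 1 higher, at medians of -0.04 and 0.13. Over all eligible genes the shares were 3.71% lower and 5.04% higher with sevoflurane, and 5.55% and 4.1% with desflurane. The gene called higher was *Id1*, an inhibitor of DNA binding, at 2.45 and 5.25. In the list of 11 genes lowered by insulin, all eligible, sevoflurane had 3 called higher and 2 lower (5.04% and 3.71% of all eligible genes), and desflurane 3 higher and 0 lower (4.1% and 5.55%), at medians of -0.08 and 0.63. *Ppargc1a*, a coactivator of gluconeogenic genes, stood at 0.026 and 2.48 with sevoflurane and at 0.41 and 9.09 with desflurane, 0 h before 6 h. *Klf15*, a factor that promotes amino acid use for glucose synthesis, went from 12.7 to 49.7 and from 14.3 to 39.9. *Pck1*, which catalyzes a committed step of gluconeogenesis, went from 527 to 1497 with sevoflurane, where it was called, and stood at 942 and 1762 with desflurane, where it was not. *G6pc*, which releases free glucose, stood at 361 and 258 with sevoflurane and was called higher with desflurane, from 199 to 651. *Pdk4* and *Angptl4*, which limit glucose oxidation and lipoprotein lipolysis, were the genes called lower with sevoflurane. *Angptl4* stood at 74.5 and 24.3 with sevoflurane and at 38.7 and 28.1 with desflurane, where it was not called. Of the 11 genes of this list tested in limma, 3 passed as higher (*Pck1*, *Klf15* and *Ppargc1a*, whose mean TPM reached 2 only through its 6 h libraries). *Angptl4* alone passed as lower (-1.01 ± 0.23, adjusted p = 0.0131), where 4.69% of all genes tested were higher and 3.94% lower.

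In the insulin cascade, with 24 genes found of 28, sevoflurane had 1 called higher and 1 lower of 21 eligible, and desflurane 1 higher and 0 lower of 19, against the same shares over all genes. The gene called higher was *Foxo1* with both agents, with values of 2.45 and 5.27 for sevoflurane and 3.06 and 7.44 for desflurane, with a common change of 0.96 ± 0.23 (adjusted p = 0.0218 in limma). *Irs3*, a rodent docking protein related to IRS1, was called lower with sevoflurane, from 3.49 to 0.17, but the desflurane control was already at 0.75. *Pik3r1*, the regulatory subunit of phosphoinositide 3-kinase, stood at 26.9 and 42.4 with sevoflurane and 36.7 and 57.0 with desflurane, which was not called, although its common change of 0.63 ± 0.15 passed in limma (adjusted p = 0.0225). Of the 15 genes that restrain insulin signaling, 12 were eligible with each agent. Of these, 0 were called with sevoflurane and 1 with desflurane, where 8.75% and 9.65% of all eligible genes were called in either direction. The gene called was *Trib3*, an inhibitor of AKT, which went from 3.02 to 18.9 with desflurane. With sevoflurane *Trib3* stood at 4.97 and 9.86, and its common change of 1.58 ± 0.30 passed in limma (adjusted p = 0.00508).

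**Figure D5:**
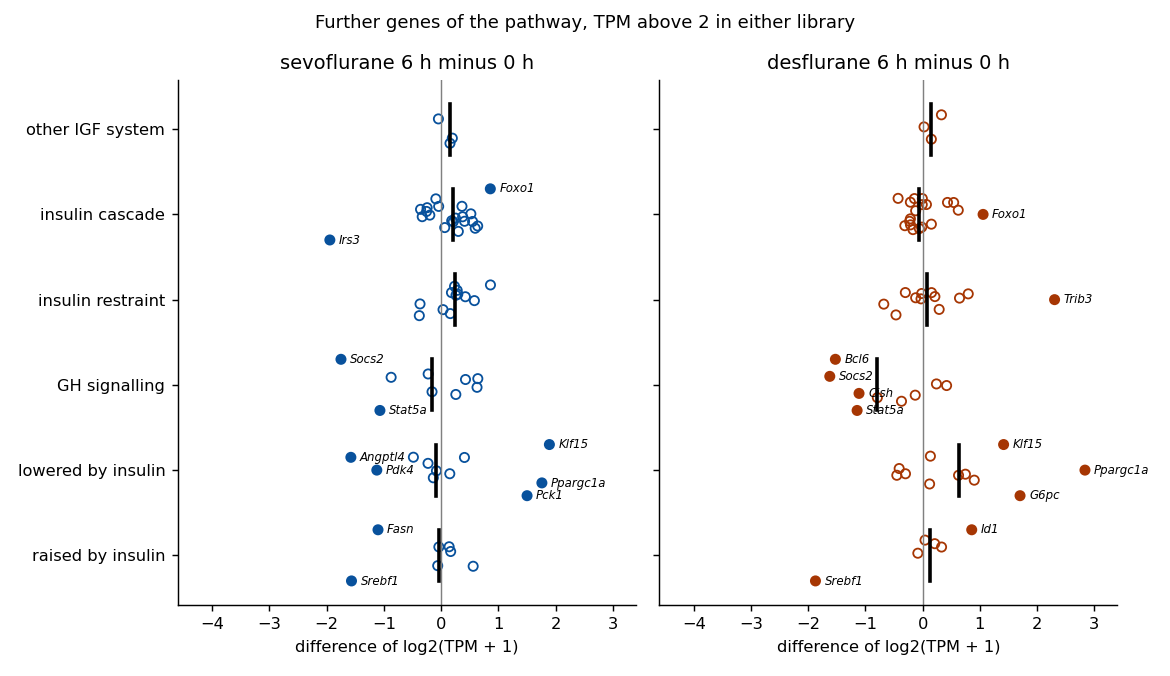
Difference of log2(TPM + 1) between 6 h and 0 h for the further genes of the pathway with a TPM above 2 in either library, by list, with sevoflurane on the left and desflurane on the right. Filled points with names were called, and black bars are list medians. *Socs2* and *Stat5a* in the growth hormone list and *Srebf1* among the genes raised by insulin lie to the left with both agents.

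Finally, the genes with profiles nearest to those of *Igfbp1* and *Igfals* were found among the 8024 genes, by the distance between log2(TPM + 1) values centered on each gene's mean over the 4 libraries. Those nearest to *Igfbp1* were *Gadd45b* (distance 0.858), *Lpin1* (0.866), *Alas1* (1.03), *Ciart* (1.12) and *Got1* (1.44). *Lpin1* stood at a TPM of 5.58, 74.0, 7.43 and 186 in sevoflurane 0 h and 6 h and desflurane 0 h and 6 h. *Gadd45b* stood at 1.31, 32.8, 1.60 and 72.5 in the same order. In both of these genes, as in *Igfbp1*, desflurane 6 h was the highest library, which their choice by profile over the same libraries makes likely. *Got1* was nearly level at 6 h (203 with sevoflurane and 207 with desflurane). Those nearest to *Igfals* were *Sqor* (0.0574), *Rassf3* (0.0677) and *Snx12* (0.103). With 4 libraries these distances are a description only.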

How the data were processed

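RNA sequencing was analysed for 4 rat liver libraries, 1 per group, grouped by their titles. Libraries were made with a stranded total RNA kit per the labels, and the submitters' processing notes name HISAT2, SAMtools, StringTie and the build rn6. Tool versions and the annotation: not given in the sources used here. For each library the authors deposited 1 gene abundance table. The deposited TPM column was handled as a score, since its assembled loci already reach a whole TPM total, to which rows of named genes bring a further 0.766 to 0.789 of it. The deposited FPKM is a fixed fraction of TPM within a library, from 0.635 to 0.675 between libraries, and coverage, as deposited, is an unscaled mean of reads over each base. No read counts were used, so no counting interval is given.

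Named rows over 200 bp were kept and summed by symbol, and 16985 of 16999 symbols had a value in every library. Calls needed a TPM above 2 and a ratio above 2. The common change was fitted with limma 3.58.1 in R 4.3.3 (log2(TPM + 1), agent as a block, eBayes with trend, two-sided, Benjamini-Hochberg over all genes tested). The fit was run on simulated data with the same noise for all genes and equal changes with both agents. That run gives no error rate for these libraries. The named genes were the 10 members, the 3 called genes per further list with the largest mean change, and the nearest profiles. *Stat5b*, *Bcl6*, *G6pc*, *Pdk4*, *Angptl4*, *Pik3r1*, *Igfbp7*, *Ins1*, *Ins2*, *Tat* and single marker genes of other cells were added after their values were seen. In addition, 1 gene of the insulin-induced list is not reported here, and that list was counted without it. Members and lists were chosen with earlier results of these data known. Alternatives changed the minimum, ratio, scaling, pseudocount, rows, control and libraries.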

Additional observations from a re-analysis of the deposited data

Results flagged for a closer look

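*Igf1* changed by 0.13 on the log2(TPM + 1) scale with sevoflurane and by -0.27 with desflurane, so that the single animals of the agents moved in opposite directions. The difference was not tested, and neither change was called.

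Loci assembled from reads on the strand opposite to a gene of the axis were found in 3 cases and entered no comparison. A locus opposite to *Ghr* had a TPM of 0.483 in sevoflurane 6 h and of 1.26 in desflurane 0 h, and a locus opposite to *Insr* had a TPM of 0.678 in desflurane 6 h. The other libraries list no such locus, which is not a measured 0.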

How the results depend on the processing

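Under all alternatives, the 279 recomputed changes of the 10 genes at 6 h against 0 h kept their sign, and 16 of them changed their call. Another minimum, ratio, pseudocount or choice of rows could not turn a sign here. Only rescaling, FPKM, coverage, assembled loci and the control of the other agent could do so. With sevoflurane the genes called lower were 0 by the rule, 2 with a ratio above 1.5 (*Irs1* and *Igfals*), and 1 (*Irs1*) with median of ratios scaling, rescaling without *Rn7sl1*, FPKM, the control of the other agent or assembled loci in place of named rows. With desflurane those called lower were 2, but 0 with a ratio above 3 and 1 with the control of the other agent. Genes called higher with sevoflurane were 3 in place of 2 with *Irs2* at a TPM minimum of 1 or none, without *Rn7sl1* and with assembled loci, and with *Igfbp4* at a ratio above 1.5. With desflurane they were 2 in place of 3 at a TPM minimum of 5, without *Irs2*, and with assembled loci, where *Irs2* has no value at 0 h. In the desflurane control 1 gene was lower with a ratio above 1.5, with either rescaling and with assembled loci (*Igfbp1*), and 1 was higher with assembled loci (*Igfbp2*). At 6 h, 1 gene in place of 2 was higher with desflurane with a TPM minimum of 5, a ratio above 3 or assembled loci. Assembled loci and coverage were chosen as alternatives after seeing the data.

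In the change common to both agents, limma called 1 gene higher and 1 lower with a mean TPM of at least 5, and 0 and 0 without a minimum. Over all genes the 376 higher and 316 lower became 19 and 6 without a minimum, 106 and 57 without sevoflurane 0 h, 317 and 274 without sevoflurane 6 h, 188 and 95 without desflurane 0 h, 228 and 183 without desflurane 6 h, and 284 and 204 without the agent block. When each library was left out in turn, without the block, 1 to 2 genes were higher and 0 to 2 lower, and the estimate of *Igf1* turned to 0.0679 without desflurane 6 h. In these fits the lone library is assumed to vary like the others. Adjusted p in limma over all alternatives ran from 3.63e-06 to 0.149 for *Igfbp1*, 0.000895 to 0.161 for *Igfbp2*, 0.00103 to 0.167 for *Igfals* and 0.0172 to 0.216 for *Irs1*. The share of *Igfbp1* in desflurane 6 h was 20.3% of *Igfbp1* to *Igfbp7*. The agent block pairs the libraries of an agent, and dropping it changed no call of the 10 genes. Low coverage limits *Irs2* and the controls of *Igfbp2* most.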
